A study of Mus musculus with 12 samples.

Results

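The regions described here are 6013 of the 21563 KLF4 peaks listed for mouse induced pluripotent stem cells (iPSCs). They were selected on 3 things: binding of KLF4 in iPSCs, an overlap of 1 bp or more with an iPSC peak of acetylated histone H3 lysine 27 (H3K27ac), and a position more than 2 kb from both ends of every RefSeq protein-coding gene. They are called members below. Of all KLF4 peaks, 10497 overlapped H3K27ac and 13731 lay away from gene ends, so that the members are the overlap of these conditions. The same rules left 4484 acetylated KLF4 peaks near gene ends, 7718 KLF4 peaks away from gene ends without H3K27ac, and 33603 H3K27ac peaks away from gene ends without KLF4. Presence of KLF4 and of H3K27ac in iPSCs chose the members and is no finding about them.

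The peaks came from chromatin immunoprecipitation sequencing (ChIP-seq) of iPSCs, with 2 replicates for KLF4, 2 for H3K27ac and 1 input for each. H3K27ac was also measured in V6.5 mouse embryonic stem cells (ESCs), with 2 replicates at 0 h, 2 at 24 h and 2 inputs. The ESCs were clonal lines carrying lentiviral, doxycycline-inducible Cas9 with guides that the labels give as either against KLF4 only or against the 3 factors KLF2, KLF4 and KLF5, and doxycycline was present for 24 h in the later group. The 0 h cells carried the same construct without induction and are titled WT. The 24 h samples are titled TKO and KLF4 KO at once, so the exact set of disrupted genes is stated no further here. All cells are labelled as cultured in 2i, a pair of kinase inhibitors used to keep the naive state, and the general protocol names feeder cells, serum and LIF. Reprogramming factors and the source cells of the iPSCs were not analysed here.

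KLF4 is a zinc-finger transcription factor that binds GC-rich and CACCC-type sequence and is one of the factors used to make iPSCs. With its relatives KLF2 and KLF5 it belongs to the network of naive pluripotency, together with ESRRB, TFCP2L1, TBX3 and NANOG. H3K27ac marks active enhancers and promoters. Acetylated sites of transcription factor binding away from promoters are commonly taken as enhancers, and groups of such sites close together are found around genes of cell identity.

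The depth of the libraries is unknown, because the deposited lists hold no read counts. Each group is represented by 1 list for both of its replicates, so no value has a replicate error, no difference between the times or between classes of region was tested, and the intervals given are 95% intervals that treat peaks or bins as independent and cover counting error only. The ESC lists hold 10 kb bins with an H3K27ac value in part of them, 26812 at 0 h and 25611 at 24 h. The median value over bins with one was 4.65 at 0 h and 4.05 at 24 h, and the median log2 ratio of 24 h over 0 h over the 22739 bins valued at both times was -0.23. That median was subtracted throughout, and the result is called the relative value. A bin with a relative value of 0 had the median ratio of all bins. How the authors scaled the times to each other is not known from the labels or lists.

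The sequence under a member could be read where it lies whole inside a RefSeq start window, the 250 bases before and 50 bases after an annotated transcription start. Starts inside genes and starts of long noncoding RNA (lncRNA) genes are not gene ends of protein-coding genes, which is why members can hold them. Bases before the start were available for 41 members with 60 bases or more. A long and a short spelling of the KLF motif were searched on both strands: the long forms GGGTGTGG and GGGCGTGG, and the core GGGTG, which lies inside the first long form. Of the 41, 4 held a long form and 27 the core. The sequences shown first are those 4, which carry the long motif, printed 5′ to 3′ on the strand of the transcript with motifs in capitals. Coordinates here and below are those of the printed bases, which end before the transcription start even where the member goes on. They lie for Dennd2c at chr3:103127361-103127555, plus strand, for Dhcr7, the last enzyme of cholesterol synthesis, at chr7:143829977-143830164, plus strand, for the lncRNA gene Gm28548 at chr9:104361607-104361830, plus strand, and for the antisense transcript Zbtb11os1 at chr16:55974618-55974841, minus strand, all in GRCm38.p6 coordinates. The ESC bins holding them had values at 0 h and 24 h of 5.61 and 4.27 (relative value -0.16, as defined above) at Dennd2c, 2.40 and 2.24 (0.13) at Dhcr7, 8.18 and 6.32 (-0.15) at Gm28548 and 6.46 and 5.56 (0.01) at Zbtb11os1.
Dennd2c: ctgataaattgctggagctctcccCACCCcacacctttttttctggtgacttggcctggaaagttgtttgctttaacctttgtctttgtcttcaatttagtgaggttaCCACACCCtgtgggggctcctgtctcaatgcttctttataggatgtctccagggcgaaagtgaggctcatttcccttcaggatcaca
Dhcr7: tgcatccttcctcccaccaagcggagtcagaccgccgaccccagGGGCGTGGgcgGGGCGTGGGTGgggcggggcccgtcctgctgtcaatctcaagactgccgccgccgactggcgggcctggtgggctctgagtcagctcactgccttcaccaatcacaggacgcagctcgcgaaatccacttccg
Gm28548: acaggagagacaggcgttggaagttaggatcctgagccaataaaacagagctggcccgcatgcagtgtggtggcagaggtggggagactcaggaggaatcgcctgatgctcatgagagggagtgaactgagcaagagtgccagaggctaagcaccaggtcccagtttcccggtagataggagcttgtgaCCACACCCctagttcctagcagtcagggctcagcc
Zbtb11os1: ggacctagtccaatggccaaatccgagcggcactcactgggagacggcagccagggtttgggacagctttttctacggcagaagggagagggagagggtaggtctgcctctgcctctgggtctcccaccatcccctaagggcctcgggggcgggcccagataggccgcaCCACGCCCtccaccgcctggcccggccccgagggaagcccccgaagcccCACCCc

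The next 4 sequences were picked, after their values had been seen, for what their ESC bins held. An internal start of Dnmt3l, a cofactor of de novo DNA methylation, lies in a member whose printed bases, chr10:78049706-78049841, plus strand, held 3 cores. Its bin held a value of 4.06 at 0 h and 1.91 at 24 h, a relative value of -0.86. The gene with the nearest end to it is Aire. The member at the start of Bhlhb9, printed over chrX:135885671-135885850, plus strand, also had 3 cores and a bin at 8.95 and 6.53. The member at the start of the lncRNA Gm36595, printed over chr10:56431802-56431980, plus strand, held no core, and its bin had 4.07 at 0 h and no value at 24 h. The member at the start of Malat1, an abundant nuclear lncRNA, printed over chr19:5802674-5802774, minus strand, held no core, and its bin had 11.2 and 9.18.
Dnmt3l: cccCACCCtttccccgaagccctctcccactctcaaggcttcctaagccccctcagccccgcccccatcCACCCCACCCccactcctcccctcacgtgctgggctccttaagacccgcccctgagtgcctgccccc
Bhlhb9: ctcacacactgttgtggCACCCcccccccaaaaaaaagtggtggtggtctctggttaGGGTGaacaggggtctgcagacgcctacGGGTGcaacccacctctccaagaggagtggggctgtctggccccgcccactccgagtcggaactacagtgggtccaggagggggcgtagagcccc
Gm36595: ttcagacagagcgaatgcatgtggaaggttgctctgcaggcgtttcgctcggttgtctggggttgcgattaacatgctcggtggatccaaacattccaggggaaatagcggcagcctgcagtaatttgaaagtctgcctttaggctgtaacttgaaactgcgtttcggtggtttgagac
Malat1: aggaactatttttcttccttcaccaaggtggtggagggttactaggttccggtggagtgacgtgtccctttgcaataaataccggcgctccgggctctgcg

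Among RefSeq start windows, 333 overlapped a member by 100 bases or more, and 82 of them (24.6%) held a long motif. The share was 8.63% (2810) over all 32544 windows and 5.80% (1589) over the 27412 windows with no KLF4 peak. The core was in 75.4% of the windows with a member, 57.7% (18763) of all windows and 55.2% (15139) of those with no KLF4 peak. Windows with any KLF4 peak were not set out as a class. KLF4 binding chose the members, so these shares do not set them apart from other windows bound by KLF4. Base composition moved with this, since the median GC content was 63.7%, 53% and 51% in the same order, and its part in the motif shares was not tested. A match is letters in a window and shows no binding by itself.

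A group of 8 members lay 2.37 to 24.3 kb before the Mir290 hairpins, the cluster of microRNAs that is among the most abundant in mouse ESCs. They were picked out after values had been seen, and the rule assigns them to the protein-coding gene Nlrp12, a NOD-like receptor, because hairpins are not protein-coding. Of these, 6 shared 1 iPSC H3K27ac peak of 17517 bp at chr7:3198461-3215977. The mature sequences are shown because 3 of the 3p arms share a seed, the bases 2 to 8 that pair with targets, given in capitals. The seed AAGUGCU is common to miR-291a-3p, miR-294-3p and miR-295-3p, while miR-290a-3p and miR-291b-3p differ from it in the last base.
mmu-miR-290a-3p: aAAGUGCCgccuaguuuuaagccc
mmu-miR-291a-3p: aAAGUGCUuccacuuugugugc
mmu-miR-291b-3p: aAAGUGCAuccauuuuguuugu
mmu-miR-294-3p: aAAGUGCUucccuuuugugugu
mmu-miR-295-3p: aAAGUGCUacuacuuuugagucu

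The ESC bins that held these 8 members had a value of 18.1 at 0 h and 14.9 at 24 h, with a relative value of -0.05. Neighbouring bins carried 1 and the same value there, so the 3 bins are 1 measurement. Within 10 kb of any hairpin there were 101 members, at 99 of 1005 hairpins, and the Mir183 hairpin had 4.

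Members sat mostly at middle distances from genes. Of the 6013, 940 lay 2 to 5 kb from the nearest gene end, 1106 at 5 to 10 kb, 2617 at 10 to 50 kb, 693 at 50 to 100 kb and 657 beyond 100 kb, with a median of 17.9 kb. The centre of 2859 members (47.5%) was inside a protein-coding gene, that of 776 (12.9%) inside a lncRNA gene, and that of 2554 (42.5%) inside neither. The name "away from genes" therefore holds for gene ends only. Of the 5837 members on chromosomes with start windows in the table used, 716 (12.3%) lay within 2 kb of some RefSeq start, and 343 (5.88%) overlapped a start window, 197 of them for protein-coding genes with further starts and 146 for lncRNA genes. The nearest protein-coding start belonged to the same gene as the nearest end for 3992 members (68.4%).

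The median member was 297 bp wide. Acetylated KLF4 peaks near gene ends had a median width of 319 bp, and those away from gene ends without H3K27ac were 220 bp wide in the median. The H3K27ac peak holding a member had a median width of 1132 bp, against 405 bp over all 55466 H3K27ac peaks. Since a wide peak is more likely to meet another, these widths are descriptions of what the rule selects. H3K27ac covered 2945 members whole and under 50% of 1465. The members lay in 5411 H3K27ac peaks, of which 413 held 2 and 82 held 3 or more. Besides the peak before the Mir290 hairpins, peaks with 5 members lay by Slc2a3 (a glucose transporter, 13131 bp), Zbtb44 (a zinc-finger protein, 6925 bp) and Ywhaz (a 14-3-3 protein, 3478 bp).

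Part of the members lay close to each other. Members were joined when the centre of one lay inside a window of 25 kb centred on the next, so no farther away than the radius of that window, and 42.2% of members (interval 41.0 to 43.5%) were in clusters of 2 or more. The share was 38.1% among acetylated KLF4 peaks near gene ends and 21.8% among KLF4 peaks away from gene ends without H3K27ac, and 26.0% among unacetylated KLF4 peaks near gene ends. Among the H3K27ac peaks away from gene ends without KLF4 it was 79.9%, with a median distance of 0.951 kb to the nearest such peak. The sets differ in size, from 3348 to 33603 peaks, which bears on these shares. The median distance to the nearest peak of the same kind was 22.9 kb for members, 37.3 kb for acetylated peaks near gene ends and 53.0 kb for the unacetylated peaks. Within 1 kb the order was another one, with 14.8%, 24.3% and 5.86% having such a neighbour. In a window of 25 kb centred on the member, 786 members (13.1%) also had an acetylated KLF4 peak near a gene end. In the same window 918 (15.3%) had an unacetylated KLF4 peak away from gene ends, and unacetylated peaks near gene ends were not counted.

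**Figure D1:**
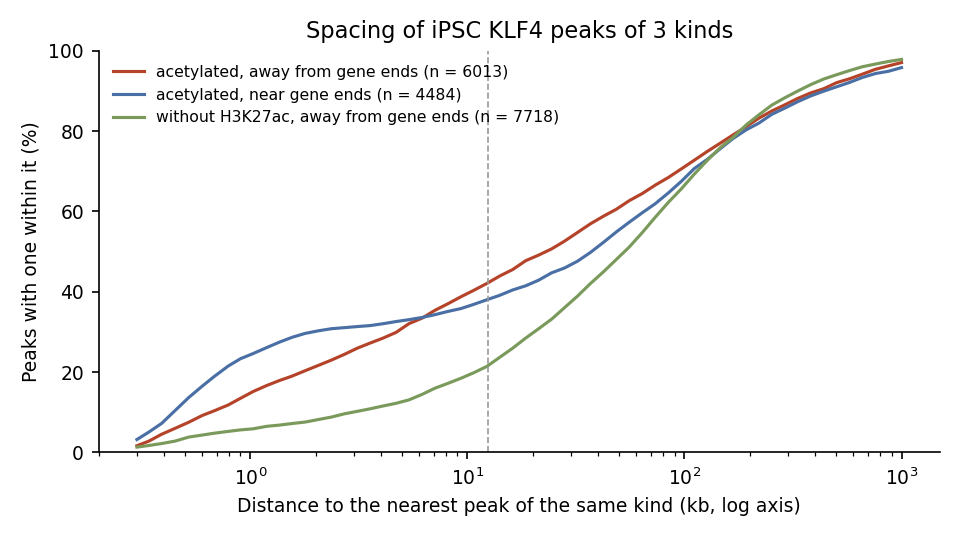
Share of iPSC KLF4 peaks (vertical axis, percent) with another peak of the same kind within a given distance (horizontal axis, kb, log scale), for 6013 members, 4484 acetylated peaks near gene ends and 7718 peaks away from gene ends without H3K27ac. At the dashed line, the edge of a window of 25 kb centred on a peak, the curves stand at 42.2%, 38.1% and 21.8%, and the curve of peaks near gene ends is the highest at 1 kb.

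There were 1020 clusters of 2 or more members, 296 of 3 or more and 49 of 5 or more. The 49 held 277 members and had a median span of 16.3 kb. Clusters of 9 members lay between Tex44 and Ptma, which encodes prothymosin alpha, at chr1:86470865-86504090, and by Clic4, a chloride channel protein, and Srrm1, a splicing factor, at chr4:135287082-135313417. Their highest bins had values of 9.79 at 0 h and 6.46 at 24 h for the former and 10.7 and 7.98 for the latter, with mean relative values of -0.18 ± 0.24 (SD over 4 bins) and -0.23 ± 0.07 (SD over 4 bins). The clusters of 7 at Ubtf and Slc4a1 (mean 0.00), Cic (0.09) and Csnk1a1 (0.20) had means near 0 or above it. The cluster of 7 at Zbtb44 had values of 14.7 and 10.4 in 2 bins that share 1 value, with a relative value of -0.27. The clusters with the most members thus had relative values on both sides of 0.

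Most members lay in ESC bins with H3K27ac. The bin with the centre of the member was valued at 0 h for 5166 of 6013 (85.9%, interval 85.0 to 86.8%) and at 24 h for 4805 (79.9%, interval 78.9 to 80.9%). Both times were valued for 4753 members, 0 h only for 413, 24 h only for 52 and neither for 795. The shares at 0 h and 24 h were 86.3% and 83.0% for acetylated KLF4 peaks near gene ends, 31.8% and 27% for KLF4 peaks away from gene ends without H3K27ac, and 78.3% and 75.9% for H3K27ac peaks without KLF4. The members are iPSC peaks and the bins are ESC data, so these shares also describe how far the lists of 2 cell sources overlap.

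Of the 795 members without an ESC value, 749 lay in bins that neither ESC list holds. The H3K27ac peaks of these 749 had a median width of 584 bp, against 1285 bp for members in listed bins, and 26.0% of them lay over 100 kb from a gene end, against 8.78%. Several zinc-finger genes and predicted genes had nearly all of their members there, such as Gm15319 with 7 of 8, Zfp600 with 5 of 5 and Zfp980, Zfp981 and Zfp988 with 4 of 4 each. The 9 members on chromosome Y had no ESC bin, since neither list has bins there.

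In all, 4479 ESC bins held a member. The median value was 6.63 at 0 h over 4376 such bins and 5.03 at 24 h over 4043. Over the 3987 bins valued at both times the median relative value was -0.16 (interval -0.18 to -0.15), and over the 18752 other bins it was 0.03 (interval 0.03 to 0.04). A relative value of -0.5 or lower was reached by 717 member bins (17.98%), against 7.74% of all 22739 bins. A relative value of 0.5 or higher was reached by 93 (2.33%), against 7.25% of all bins. Bins with a member stood lower than other bins on 20 of 20 chromosomes, by 0.14 to 0.27 in the medians.

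**Figure D2:**
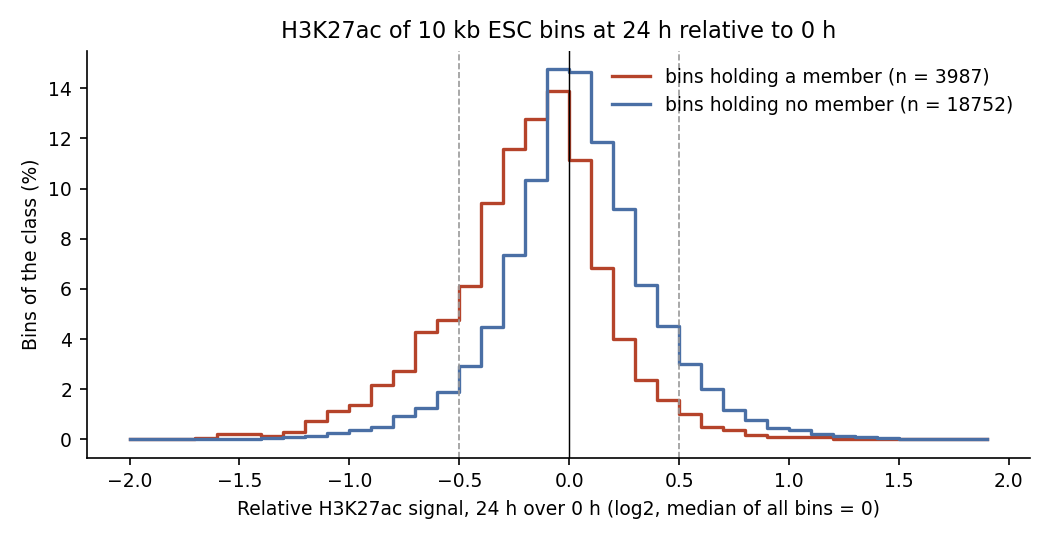
Distribution of the relative H3K27ac value at 24 h over 0 h (horizontal axis, log2, in steps of 0.1) in 3987 ESC bins that hold a member and 18752 that hold none (vertical axis, percent of the bins of each class). Dashed lines mark -0.5 and 0.5; the distribution of bins with a member lies to the left of the other, with medians of -0.16 and 0.03.

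Bins that had a value at 0 h but none at 24 h made up a smaller share among those with a member. There were 389 such bins (8.89%), against 15.2% of all bins valued at 0 h. In the other direction, 56 member bins (1.39%) had a value at 24 h only, against 11.2% of all bins valued at 24 h. Since member bins had higher values at 0 h, these shares were also read within the level.

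The relative value of member bins was set beside other kinds of bin, sorted by the KLF4 peaks in them. A bin with only 1 kind of KLF4 peak held no KLF4 peak of another kind, but could hold further H3K27ac peaks. It had a median of -0.17 and 18.7% of bins at -0.5 or lower in the 3448 bins with members and no other KLF4 peak. Bins with only acetylated KLF4 peaks near gene ends had -0.04 and 4.10%, and bins with only KLF4 peaks away from gene ends without H3K27ac had -0.04 and 12.1%. Bins with only KLF4 peaks near gene ends without H3K27ac had 0.01 and 5.56%. Bins with H3K27ac peaks away from gene ends and no KLF4, which could also hold H3K27ac peaks near gene ends, had 0.06 and 5.48%. The share valued at 0 h only was 9.43%, 6.99%, 27.1%, 21.0% and 8.62% in the same order of classes. The interval of the first class was -0.18 to -0.16 for the median. It treats bins as independent although neighbouring bins share values, and it holds no replicate error. No test of the differences was possible with 1 list per time.

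The difference was seen at every level of H3K27ac. With all bins valued at both times cut into 4 level quartiles by their mean log2 value over both times, the median relative value of member bins was -0.26 in the lowest, -0.22 in the second, -0.16 in the third and -0.13 in the highest. Bins without a member had 0.07, 0.06, 0.03 and -0.02 in the same order. The share at -0.5 or lower was 26.9%, 26.2%, 19.9% and 11.7% with a member and 6.39%, 6.18%, 4.87% and 4.46% without one. Bins with a value at 0 h only were placed by that value, and their share of bins valued at 0 h was 16.2%, 12.8%, 6.70% and 6.80% with a member, and 25.8%, 15.3%, 11.6% and 8.15% without one. In each quartile the share valued at 0 h only was thus lower, and the share at -0.5 or lower was higher, with a member than without one. The lower share at 0 h only was not particular to members. It was 14.1%, 7.55%, 7.25% and 5.84% in bins with H3K27ac peaks away from gene ends and no KLF4. Bins with members and no other KLF4 peak had 17.2%, 13.6%, 6.94% and 7.31%.

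Distance from genes went with the relative value. For bins with members 2 to 5 kb, 5 to 10 kb, 10 to 50 kb, 50 to 100 kb and over 100 kb from a gene end, the medians were -0.13, -0.15, -0.17, -0.20 and -0.21. The share at -0.5 or lower was 13.4%, 14.4%, 18.03%, 24.1% and 25.9%, and the share valued at 0 h only was 4.92%, 6.14%, 7.94%, 11.5% and 20.8%. The median value was 6.81, 6.73, 6.54, 6.72 and 7.18 at 0 h and 5.35, 5.31, 4.94, 4.85 and 5.03 at 24 h. Distance was not read within level quartiles, so the part of level in this order was not tested. Bins with members inside protein-coding genes had a median of -0.12 and 14.5% at -0.5 or lower, and those with members outside had -0.19 and 21.5%. Bins with a member on a RefSeq start window had a median of -0.08 and 5.93%.

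**Figure D3:**
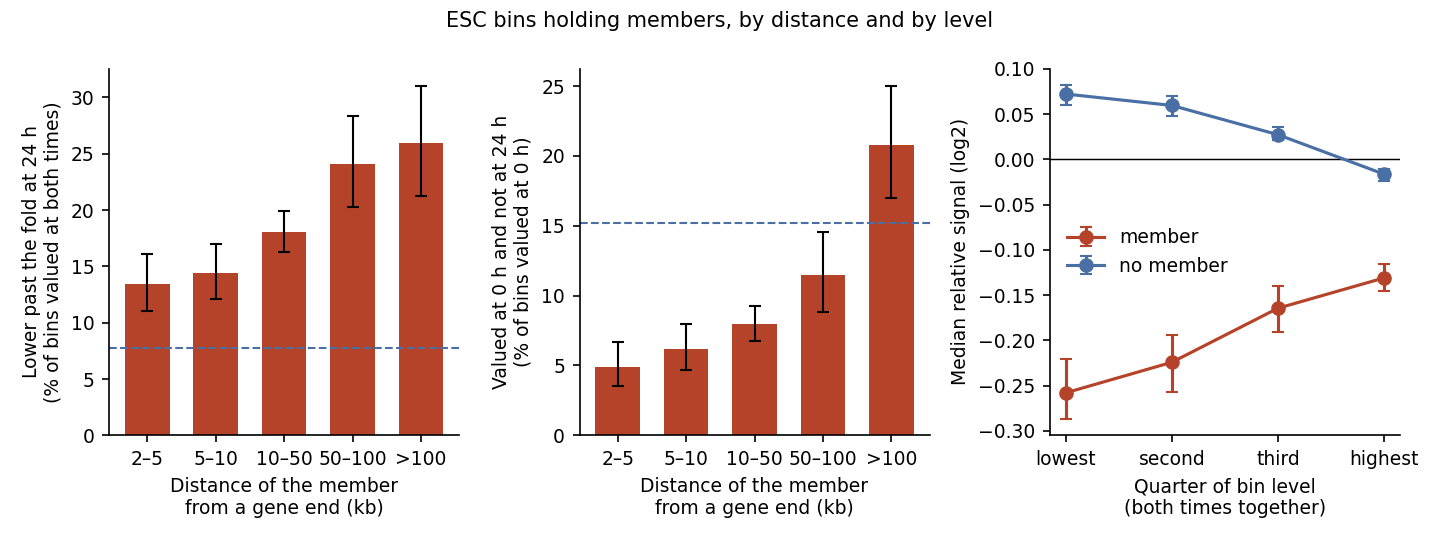
Left and middle, share of ESC bins holding members that stood at -0.5 or lower in relative value, or had a value at 0 h only, by distance of the member from a gene end; bars are percentages with 95% binomial intervals, and dashed lines are the shares of all bins, 7.74% and 15.2%. Right, median relative value (log2) with 95% interval by level quartile for bins with and without a member; the bars run from 13.4% to 25.9% and from 4.92% to 20.8%, and the points of the 2 classes stay apart in each quartile.

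Number and width of the members in a bin went with its value. Bins with 1, 2 and 3 or more members had median 0 h values of 6.38, 7.66 and 8.92. Their median relative values were -0.16, -0.19 and -0.18, with 18.2%, 19.2% and 8.15% at -0.5 or lower and 9.85%, 5.11% and 1.46% valued at 0 h only. With members cut into 4 groups by KLF4 peak width, the narrowest up to 217 bp and the widest above 398 bp, the medians were -0.10, -0.14, -0.20 and -0.21, and the shares at -0.5 or lower were 12.0%, 14.9%, 20.7% and 23.0%. Width of the H3K27ac peak gave no such order in the median (-0.12, -0.18, -0.17 and -0.17). It did for the share valued at 0 h only, which was 17.6%, 10.9%, 5.91% and 0.995% from the narrowest to the widest.

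The ESC lists also carry a whole number per bin, called the bin score here, which the lists do not explain. Over the 4113 member bins listed at both times its mean was 8.02 at 0 h and 6.75 at 24 h. It was lower by 5 or more in 281 bins (6.83%), against 1.85% of all bins listed at both times, and higher by 5 or more in 10 (0.243%), against 0.417%. All bins listed at both times had lower mean scores, 4.21 at 0 h and 3.86 at 24 h. A low score at 0 h leaves little room to fall by 5, so the shares lower by 5 also depend on the starting score. The 5 further columns hold marks, also unexplained. The mark of column 6 was set in 5.94% of member bins and 0.857% of all bins, that of column 9 in 4.51% and 0.553%, that of column 7 in 33.5% and 10.8%, that of column 5 in 6.90% and 2.84%, and that of column 8 in 3.86% and 3.55%.

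The nearest genes were many. With a gene end within 100 kb, 5356 members were assigned to 3270 of 21883 protein-coding genes, 14.9% of them. Of these genes, 2146 had 1 member, 655 had 2, 352 had 3 or 4, and 117 had 5 or more. The 117 held 737 members, 352 of them inside the gene. Nearest is a distance, and which gene a member acts on was not measured. Of the 228 genes with 3 or more member bins valued at both times, 187 had a mean relative value below 0, against 1876 of the 2596 genes with any such bin (72.3%). The 2596 include genes with 1 such bin, and means over more bins scatter less. The 2 shares are therefore no like comparison.

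Genes with the most members included 3 of pluripotency and its relatives. Tbx3, a T-box factor of the naive network, had 12 members at 2.47 to 91.0 kb, in 6 bins. At 0 h these bins had values of 4.94, 8.16, 11.2, 9.23, 5.31 and 5.31, and at 24 h 2.58, 5.94, 7.56, 6.78, 6.13 and 4.26. The relative values were -0.71, -0.23, -0.34, -0.22, 0.43 and -0.09, with 5 of the 6 below 0. The bin with the highest relative value lay on the higher-numbered side of the gene, and the lowest was the farthest bin on the lower-numbered side.

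Esrrb, an orphan nuclear receptor, had 10 members, all inside the gene. The bins had values of 10.9, 10.9, 10.9, 29.7 and 9.94 at 0 h and 8.71, 8.71, 8.71, 24.2 and 8.30 at 24 h. All 5 relative values, which are 3 distinct values, were between -0.10 and -0.03. These bins thus stayed near the median of all bins although every deposited value was lower at 24 h. Klf9, a KLF family member, had 10 members at 4.20 to 65.0 kb. The bins had 7.87, 16.8, 16.8, 15.7, 11.9 and 7.26 at 0 h and 7.56, 12.9, 12.9, 12.7, 8.92 and 6.33 at 24 h, with relative values from -0.18 to 0.17.

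**Figure D4:**
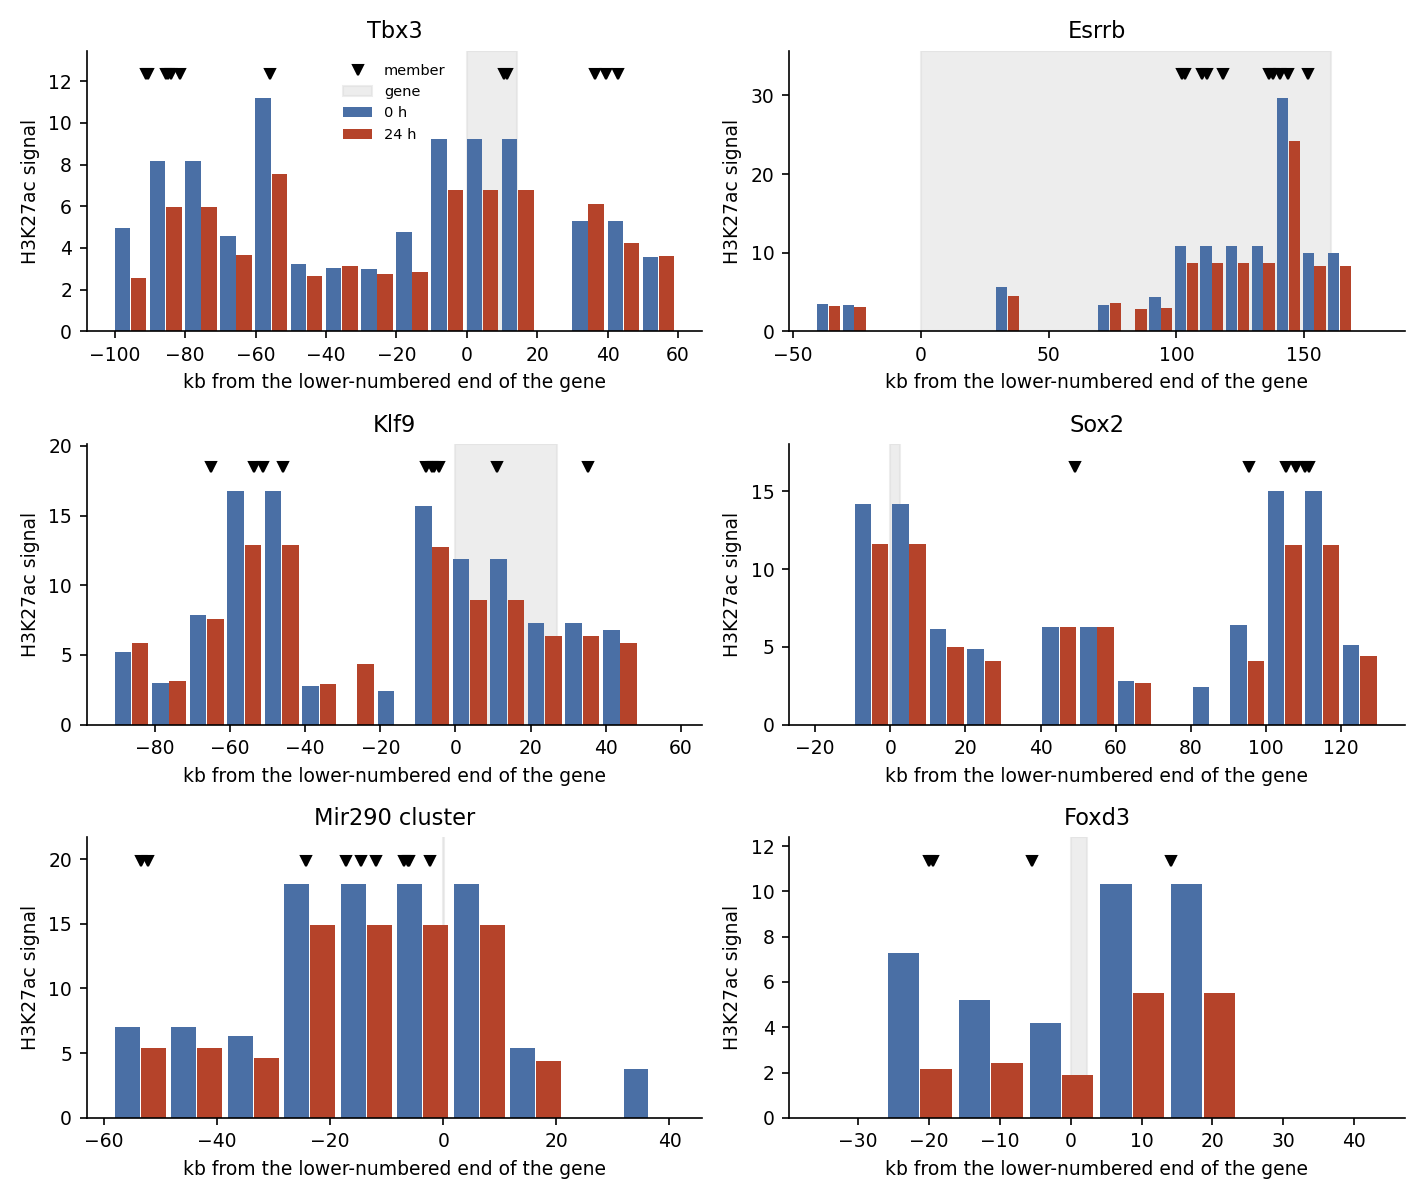
H3K27ac values of ESC 10 kb bins (vertical axes, deposited signal) at 0 h and 24 h around 6 loci, by distance in kb from the lower-numbered end of the gene or hairpin (horizontal axes), with members as triangles and the gene shaded. Missing bars are bins without a value; the bars at Foxd3 are lower at 24 h in all valued bins shown, and neighbouring bars of equal height at the Mir290 cluster share 1 value.

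The other genes with 8 or 9 members had other functions. Hs6st1, a heparan sulfate sulfotransferase, had 9 members and a mean relative value of -0.17 ± 0.12 (SD over 5 bins that hold 2 distinct values). Reep3, an endoplasmic reticulum protein, had 9 and -0.07 ± 0.23 (SD over 6 bins). Plpp3, a lipid phosphatase, had 9 and -0.14 ± 0.21 (SD over 5 bins). For Reep3 and Plpp3 the scatter between bins was larger than the mean. Gli2, a transcriptional effector of Hedgehog signalling, had 9 members and -0.37 ± 0.44 (SD over 7 bins). Cd9, a tetraspanin, had 8 members and -0.26 ± 0.01 (SD over 5 bins that hold 2 distinct values). Zmynd8, a chromatin reader, had 8 and -0.24 ± 0.23 (SD over 5 bins). Ppp2r5c, a subunit of protein phosphatase 2A, had 8 and -0.28 ± 0.21 (SD over 7 bins), and Grik3, a kainate receptor subunit, had 8 and -0.19 ± 0.31 (SD over 5 bins). BC107364 had 9 members, of which 6 lay in bins the ESC lists do not hold. Aff1, a scaffold of transcription elongation complexes, stood on the other side with 9 members, all inside the gene, and 0.25 ± 0.26 (SD over 6 bins).

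Of 22 naive pluripotency genes in the list used, 17 had a member within 100 kb, 77.3% against 14.9% of all protein-coding genes. The list was chosen with earlier results of these data known, and gene length and spacing were not held fixed, so the share is a description. Of the 16 with a value, 15 were below 0, with a median of -0.18, and none reached -0.5. Over all 2596 genes with a value the median was -0.16, so the naive genes stood near it. Tfcp2l1, a grainyhead-like factor, had 6 members and a mean of -0.17 ± 0.09 (SD over 5 bins). Klf4 itself had 4 members at 11.9 to 51.3 kb in 3 bins with a median of 17.3 at 0 h and 12.1 at 24 h, and its mean was -0.03 ± 0.44 (SD over 3 bins). The 2 bins with 3 of the members share 1 value (-0.28), and the third bin had 3.11 and 3.72 (0.48). Klf2 had 1 member 2.73 kb away with a bin at 8.86 and 6.98 (-0.12), and Klf5 1 member at 42.1 kb with a bin at 10.8 and 9.72 (0.08).

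The remaining naive genes had values close together. Jam2, a junctional adhesion molecule, had the lowest at -0.37, from 13.5 at 0 h to 8.92 at 24 h, in 3 bins that share 1 value. Zfp42, also called Rex1, had 10.6 and 7.18 (-0.33), and Dppa3, a maternal chromatin factor, 9.20 and 6.27 (-0.33). Fgf4, a growth factor gene, had 12.8 and 9.16 (-0.26), Tdh, threonine dehydrogenase, 11.05 and 7.996 (-0.24), and Dppa5a, an RNA-binding protein, 16.3 and 12.1 (-0.21). Spp1, osteopontin, had 12.8 and 9.66 (-0.18), Nr5a2, a nuclear receptor, 8.15 and 6.26 (-0.15), and Fbxo15, an F-box protein, 10.1 and 8.03 (-0.11). Prdm14, a repressor of FGF signalling, had 3 members, 1 of them in a bin valued at 0 h only, and a mean of -0.03 over the 2 other bins. Manba, a lysosomal mannosidase, had 2 members in bins the ESC lists do not hold.

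Among the other lists, formative and primed genes had members at 7 of 15, with a median of -0.33, 6 of 7 below 0 and 3 at -0.5 or lower, against 427 of 2596 genes over all. Foxd3, a forkhead factor, had 4 members in 3 bins with values of 7.29, 4.19 and 10.3 at 0 h and 2.16, 1.89 and 5.53 at 24 h. Its relative values were -1.53, -0.92 and -0.67, the lowest mean of the 228 genes at -1.04. Otx2, a homeobox factor, had 3 members and -0.17 ± 0.28 (SD over 2 bins), and Tcf7l1, a repressor of Wnt targets, had 4.49 and 4.03 (0.07). The KLF and SP family had members at 16 of 26 genes, with a median of -0.12, 11 of 15 below 0 and 4 at -0.5 or lower. Besides Klf9, Klf13 had 6 members and -0.22 ± 0.20 (SD over 5 bins), and Sp1 had 6 and 0.11 ± 0.10 (SD over 3 bins).

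Signalling lists stood near the value of all genes or on either side of it. LIF and STAT3 genes had members at 8 of 16, with a median of -0.10 and 5 of 8 below 0. Pim1, a kinase gene induced by STAT3, had 7 members and -0.39 ± 0.08 (SD over 4 bins), Socs3, a feedback inhibitor, had 6 and -0.05 ± 0.26 (SD over 4 bins), and Bcl3 had 4 and -0.14 ± 0.04 (SD over 3 bins). The bins of Pim1 held 3 distinct values and those of Bcl3 held 2. Wnt genes had members at 9 of 20, with a median of -0.04, FGF and ERK genes at 9 of 27, with -0.09, and Nodal and BMP genes at 9 of 22, with -0.25. Gsk3b, a kinase inhibited in 2i, had a bin at 9.57 and 6.21 (-0.40), and Smad7, an inhibitory Smad, 4 members and -0.46 ± 0.30 (SD over 4 bins).

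Chromatin and cell cycle lists had members at about 40 to 50% of their genes. DNA methylation genes had them at 5 of 11 (median -0.13), with Tet1 at 7 members and -0.13 ± 0.10 (SD over 4 bins) and Tet2 at 4 members and -0.41 ± 0.13 (SD over 3 bins), both oxidases of methylcytosine. The bins of Tet1 held 2 distinct values, as did those of Tet2. Polycomb genes had members at 8 of 17 (median -0.23), of which Jarid2 had 7 and -0.37 ± 0.29 (SD over 4 bins). CTCF, cohesin and Mediator genes had members at 8 of 20, each with 1 member, and a median of 0.06 with 3 of 7 below 0. Stag1, a cohesin subunit, had 12.4 and 12.1 (0.19), and Med14, a Mediator subunit, 10.0 and 9.80 (0.19). Cell cycle genes had members at 10 of 20 (median -0.26), with Mycn at 3 members and -0.29 ± 0.34 (SD over 3 bins).

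Lists of other cell types had members at a part of their genes. Trophectoderm genes had members at 4 of 13. The 3 of them with a relative value were below 0, with a median of -0.43. The other, Krt8, had 1 member, in a bin valued at 24 h only (5.38). Tead4 had 4 members and -0.47 ± 0.32 (SD over 2 bins), Tfap2a 3 and -0.43 ± 0.54 (SD over 3 bins), and Tfap2c 2 and -0.35 ± 0.12 (SD over 2 bins). Primitive endoderm genes had members at 3 of 14. Fibroblast genes, which feeder cells also express, had members at 6 of 18 and values at 3 of them. The median of these 3 was -0.12. Fn1, fibronectin, had 5 members and the lowest value, -0.37 ± 0.16 (SD over 4 bins). Col1a1 had 1 member and -0.12, and Loxl1 had 2 members and 0.04, in 2 bins that share 1 value. Snai2 had 2 in bins the lists do not hold. The part of feeder cells in the values was not tested. Epithelial junction genes had members at 10 of 16 (median -0.20), with Jup, plakoglobin, at -0.62 ± 0.08 (SD over 2 bins), and glycolysis genes at 10 of 15 (median -0.11), with Slc2a3 at 6 members and -0.13 ± 0.20 (SD over 4 bins). The 4 Slc2a3 bins held 2 distinct values.

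The genes lowest and highest by mean relative value, among the 228 with 3 or more such bins, were picked by that value and get no test. After Foxd3 came Ocrl, an inositol phosphatase (-0.94), Macroh2a1, a histone variant (-0.85), Diaph2, a formin (-0.84), Lpp, a LIM protein of cell adhesions (-0.78), Scn3a, a sodium channel (-0.71), Arhgef10l, a guanine nucleotide exchange factor (-0.68), and Grhl3, a grainyhead factor (-0.67). Diaph2 had 3 members beyond the gene, in bins that share 1 value of 14.7 at 0 h and 7.02 at 24 h. Lpp had 5 members 33.6 to 66.4 kb away, in bins with 6.83, 9.67, 9.67 and 9.38 at 0 h and 4.00, 4.20, 4.20 and 5.26 at 24 h, and the bin score summed to 45 and 24. Ocrl had 3 bins with a median of 12.2 and 5.36.

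At the other end were Tnrc18 (0.42), Tlk2, a kinase of chromatin assembly (0.36), Pknox2, a homeobox factor (0.34), Nfic, a nuclear factor I protein (0.32), Aff1 (0.25), Csnk1a1, casein kinase 1 alpha (0.20), Glt1d1 (0.19) and Cbfa2t2, a corepressor (0.19). Tlk2 bins had medians of 8.35 at 0 h and 10.5 at 24 h, and Pknox2 bins 7.18 and 8.20. The deposited values of Nfic (4.01 and 3.91), Aff1 (6.50 and 6.26), Csnk1a1 (11.5 and 10.3) and Cbfa2t2 (5.36 and 5.30) were lower at 24 h in the medians. Single bins of these genes were higher at 24 h as deposited, 2 of 3 at Nfic, 3 of 6 at Aff1, 1 of 4 at Csnk1a1 and 1 of 3 at Cbfa2t2.

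**Figure D5:**
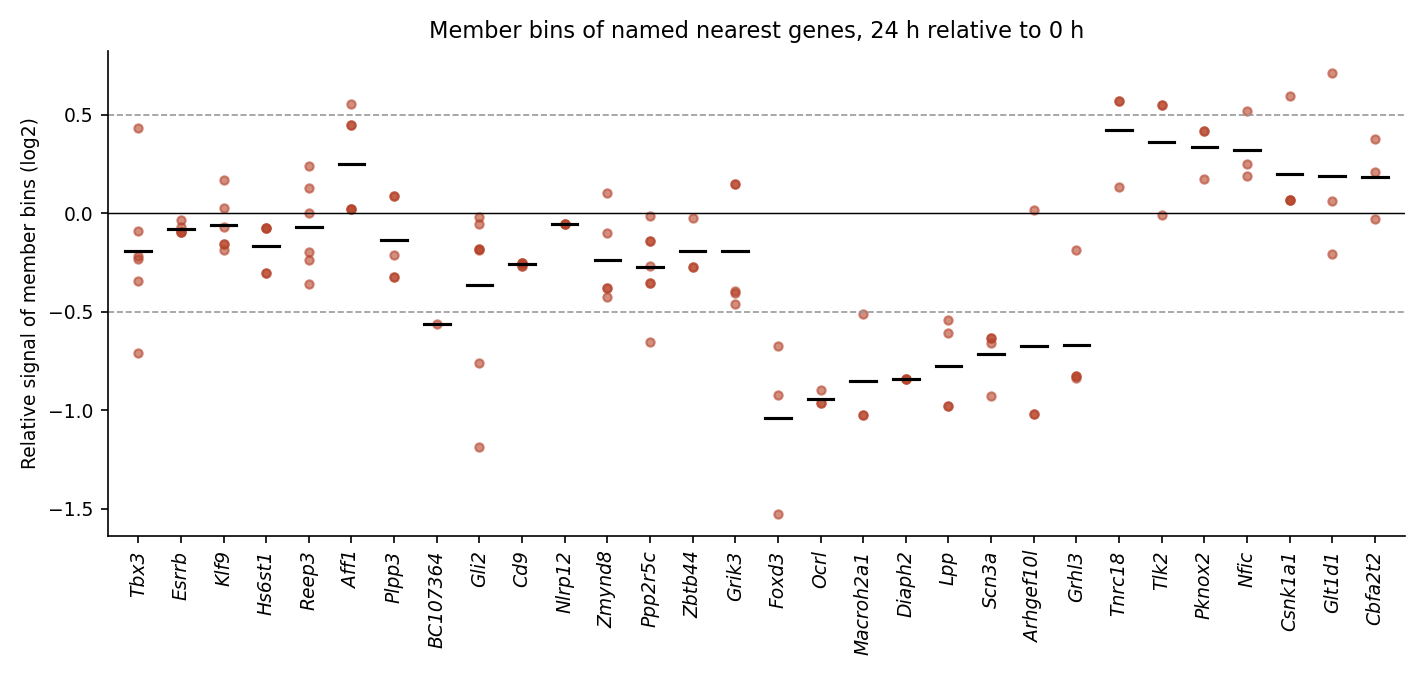
Relative H3K27ac value at 24 h over 0 h (vertical axis, log2) of each ESC bin holding a member, for the 15 genes with the most members, the 8 with the lowest and the 8 with the highest mean among 228 genes with 3 or more such bins; Aff1 is among both the first and the last and is drawn once. Points are bins, black lines are means, and dashed lines mark -0.5 and 0.5; darker points are bins that share 1 value or lie on each other.

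Some genes had member bins at 1 time only. Both member bins of Cyp2d12, Dnajc5b, Epb41l2 (a membrane skeleton protein), Gja1 (connexin 43), Map3k1 (a kinase kinase kinase), Marco (a scavenger receptor) and Mier3 had a value at 0 h and none at 24 h. Their median 0 h values ran from 4.71 at Gja1 to 8.67 at Dnajc5b, and the median of all 0 h bins was 4.65. Igsf3 also had 2 such bins, among 5. In the other direction Tnrc6a (a protein of microRNA silencing), Gid4, Kcnh1 (a potassium channel) and Sik3 (a kinase) had 2 bins each with a value at 24 h only. The median 24 h values were 6.18 at Tnrc6a, 4.52 at Gid4 and 6.26 at Kcnh1, and the 2 such bins of Sik3 had 3.35 and 2.56. A member that spans 2 bins counts in both, as those of Gid4 and Kcnh1 did. Magi1, Msi2, Wwp2 and Ranbp17 had 1 each.

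Most far members had no other far member close to them. The 657 members over 100 kb from a gene end fell into 553 groups, 79 of them with 2 or more members and 19 with 3 or more. The 79 held 183 members (27.9%). Members within 100 kb of a gene end were not counted as neighbours here, so this share cannot be set beside the 42.2% of all members in clusters. A group of 4, singled out after its values had been seen, lay 103 to 109 kb from Sox2, the SRY-box factor of pluripotency, at chr3:34755255-34761534. That stretch is in the region of the known distal enhancer cluster of Sox2, sometimes called the Sox2 control region. Its 2 bins shared 1 value, 15.0 at 0 h and 11.5 at 24 h, with a relative value of -0.15. Another group of 4 was 111 to 124 kb from Med13l, with 10.9 and 7.52 (-0.31). A group of 3 lay 310 kb from Klf6, with 6.52 at 0 h and 2.94 at 24 h (-0.92).

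Values just inside and just outside the rule were close. Acetylated KLF4 peaks 2 to 3 kb from a gene end (352) had a median relative value of -0.14 in their bins, and those at 1 to 2 kb (536) had -0.09. Members that H3K27ac overlapped by 50 bp or less (471) had -0.11, as did the 359 peaks away from gene ends with no overlap but an H3K27ac peak within 50 bp (-0.11).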

How the data were processed

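The deposited data were 4 lists for 12 ChIP-seq samples in 7 groups, 1 list for each group other than the inputs. The build mm10 and the tools MACS2, Bowtie2, bedtools and SAMtools stand in the submitters' processing notes, without versions or roles, and these do not say how replicates were combined. The iPSC lists hold positions only. In the ESC lists the authors deposited 10 kb bins with, in the last column, a signal of H3K27ac (a bin without signal holds the smallest storable number and was taken as having no value), a whole-number score and 5 columns of marks whose meaning the lists do not state. The deposited lists hold no read counts, so depth is unknown and no replicate test was possible.

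Peaks and bins were compared with gene positions from the RefSeq table for GRCm38.p6, the primary assembly of mm10. A member was assigned to the protein-coding gene with the nearest end within 100 kb, and clusters joined members whose centre lay in a window of 25 kb centred on the next member. The relative value is the log2 ratio of both values, 24 h to 0 h, minus the median of that ratio over all bins valued at both times. Intervals are exact binomial (Clopper-Pearson) for shares and from order statistics for medians, at 95%. Several genes share bins of equal value, and SDs over bins are therefore not replicate errors. An SD can rest on fewer distinct values than the number of bins given with it. Sequences came from RefSeq start windows and mature microRNAs of GRCm38.p6. No genome was used, so members outside start windows have no sequence here.

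The members, gene lists, thresholds and named genes were chosen with earlier results of these data known. Named were the 15 genes with the most members, every naive pluripotency gene with a member and up to 3 genes of each other list, the 8 largest clusters, the 8 lowest and 8 highest genes among those with 3 or more bins valued at both times, and the 8 genes each with the most bins valued at 0 h only and at 24 h only. Some items that these rules name are left out of the text. The overlap, distance and centring steps were tested on simulated data. Python 3.11.15, numpy 2.4.6, pandas 2.3.3, SciPy 1.17.1 and matplotlib 3.10.9 were used.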

Additional observations from a re-analysis of the deposited data

How the results depend on the processing

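No paired analysis was possible because each group has 1 list for both replicates. The 6 main values were recomputed 55 times, 3 of them (bins with no other KLF4 peak) chosen after seeing the data. Of these, 27 stayed within the 95% interval of the main value (within 1.5 times for the number of genes) and 28 did not. Only the median relative value could change sign, since the others are shares or counts, and it did so 0 times. With H3K27ac over 50% or more of the KLF4 peak, 89.2% of members were valued at 0 h and 6.30% of their bins had no 24 h value. More than 10 kb from gene ends, 83.9% were valued at 0 h, the median relative value was -0.18, 20.1% of bins were at -0.5 or lower, 10.4% had no 24 h value, 39.5% of members were clustered and 2071 genes were nearest. Merging KLF4 peaks 500 bp or less apart gave 34.3% clustered. Bins with no part within 2 kb of a gene end gave -0.18, 19.8% and 10.0%. Without centring, the median was -0.39 and 36.5% of bins were at -0.5 or lower, where the median of all bins was -0.23. A fold of 1 left 2.71%. Both are shares of member bins. The shares of all bins at these 2 settings were not computed, so neither can be set beside the 7.74% given above. From the lowest to the highest level quartile the medians were -0.26, -0.22, -0.16 and -0.13, the shares at -0.5 or lower 26.9%, 26.2%, 19.9% and 11.7%, and those without a 24 h value 16.2%, 12.8%, 6.70% and 6.80%. Joining centres up to 5 kb apart gave 30.9% clustered, and up to 25 kb apart, the full width of the main window and not its radius, 50.9%. The cause of each shift was not tested beyond what the setting itself leaves out. Limits: the lists have no replicates or read counts, neighbouring bins share values, so that the 3987 member bins valued at both times are 3632 runs of equal values, and a bin of 10 kb holds more than the member.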

Other observations

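The values per gene were also read for the genes with the most members. Of the 112 genes with 5 or more members and a relative value, 98 had a mean below 0, with a median of -0.19, 9 of them at -0.5 or lower and 0 at 0.5 or higher. Over all 2596 genes with a value, which include these, 1876 were below 0, 427 at -0.5 or lower and 58 at 0.5 or higher, with a median of -0.16. The 2596 include genes with 1 valued bin, whose values scatter more than means over several bins. These counts are therefore no like comparison. The lowest, singled out after its value had been seen, was Krt42, a keratin gene, with 5 members that fall in 1 valued bin, at 5.80 at 0 h and 1.85 at 24 h, a relative value of -1.42. Myo18b, an unconventional myosin gene, followed with 5 members 5.64 to 16.7 kb away and a mean of -1.01 over 2 bins. The bin scores of the 112 genes summed to 5026 at 0 h and 4408 at 24 h.

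Some far groups of members were picked after their values had been seen. Near Snx16, a group of 3 members lay 771 to 774 kb from the nearest gene end in a bin of 15.5 at 0 h and 13.2 at 24 h, with a relative value of 0.00. Near Pakap, a group of 4 had a bin with no 24 h value and a mean of -0.75 ± 0.47 (SD over 2 bins). Near Sgms1, a sphingomyelin synthase, a group of 4 had a mean of 0.15 ± 0.13 (SD over 3 bins). No explanation of these was tested.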
